A study of Mus musculus with 12 samples.

Results

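The cells described here are CD4 T cells of pancreatic islets that carried RNA of the helper cytokine Il21 or of the receptors Cxcr5 and Pdcd1 together. A cell was counted when its barcode held at least 500 unique molecular identifiers (UMIs, single captured RNA molecules), at most 8% mitochondrial UMIs, at least 40 CD4 antibody counts and no UMI of Cd8a, Cd8b1 or Foxp3, and held either 1 Il21 UMI or more, or at least 1 UMI each of Cxcr5 and Pdcd1. This gave 1649 helper cells of the 27423 barcodes, with 361, 348, 474 and 466 in replicates 1 to 4. They made up 13.9% ± 2.55 (SD, n = 4 libraries) of the CD4 cells without a Foxp3 UMI.

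The T cells came from islets of female NOD mice, a strain that develops autoimmune diabetes, at 12 weeks of age and before diabetes, and were sorted as live cells with the T cell receptor β chain on their surface. All 4 replicates had the same strain, sex, age and state and no labelled treatment, and no label tells if a replicate is a single mouse or several pooled. Each replicate gave 1 RNA library with counts for antibodies to CD62L, CD11a, CD4 and CD8b, and 1 library of T cell receptor contigs. The RNA libraries held 4136 to 8718 barcodes and 26861163 to 37834174 UMIs, and any pair of libraries shared at most 102 barcode sequences, 1 of them a helper cell in both.

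Helper T cells are known for sending B cells the signals for antibody responses. Follicular helper cells carry the chemokine receptor Cxcr5, which draws them into B cell follicles, and depend on the repressor Bcl6, while peripheral helper cells make Il21 in inflamed tissue without Cxcr5. Il21 acts on B cells and CD8 T cells, and in NOD mice the Il21 pathway is needed for diabetes.

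The members were chosen by UMIs of Il21, Cxcr5 and Pdcd1, so these genes are given as a description, with no test. In mm10 coordinates of the RefSeq table, Il21 lies on chromosome 3 (37222759 to 37232636), Cxcr5 on chromosome 9 (44511787 to 44526444) and Pdcd1, the gene of the inhibitory receptor PD-1, on chromosome 1 (94038305 to 94052553). An Il21 UMI was read in 1059 of 5872 CD62L-low CD4 cells without Foxp3 (median depth 3608 UMIs), in 4.18% of 6312 CD62L-high CD4 cells, in 1.74% of 4591 CD8 cells (median depth 4600 UMIs) and in 0.173% of 1157 B cell barcodes (95% Wilson interval 0.0474% to 0.628%, counting error only). CD8 and B cell barcodes, which make little or no Il21, thus lay far below the CD62L-low CD4 cells. Thinned to 2000 UMIs a cell, after 862 CD62L-low, 647 CD62L-high, 617 CD8 and 143 B cell barcodes below that depth were left out, the whole rule took 13.6%, 2.68%, 1.21% and 0% of these barcodes. Cxcr5 with Pdcd1 was the weaker criterion, with 8.55% of CD62L-low CD4 cells against 3.94% of CD8 cells before thinning. Of 1427 CD4 cells with a Foxp3 UMI, which the rule leaves out, 8.34% met it (median depth 5130 UMIs), nearly the share of CD62L-low cells. An Il21 UMI was read in 3.85% of them. After thinning, with 99 of them too shallow, Cxcr5 with Pdcd1 took 1.05% of them and 2.65% of CD62L-low CD4 cells.

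Of the 1649 cells, 1323 had an Il21 UMI and 326 entered by Cxcr5 and Pdcd1 alone. Among the Il21 cells 420 also had a Cxcr5 UMI and 903 had none, so that 32.5% ± 5.86 (SD, n = 4) of Il21 cells were Cxcr5-positive, with 37.1%, 36.0%, 32.7% and 24.2% in replicates 1 to 4. Many members stood just inside the rule, since 493 of 1323 Il21 cells had exactly 1 Il21 UMI and 244 of 420 Cxcr5-positive Il21 cells exactly 1 Cxcr5 UMI. Just outside it were 760 comparison cells with Pdcd1 and no Cxcr5 UMI and 207 with Cxcr5 and no Pdcd1 UMI. A cell without a Cxcr5 UMI may therefore still express the gene, and Cxcr5-zero means only that no molecule was read.

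The comparison cells were the other 4581 CD4 cells with at most 3 CD62L antibody counts and no Foxp3 or CD8 UMI (894, 1075, 1058 and 1554 in replicates 1 to 4). Helper cells were deeper, with medians of 4815 to 6976.5 UMIs in the libraries against 2852.5 to 3786 in the comparison cells. A cell with more UMIs has a higher chance of showing a UMI of any gene, those of the rule included. UMIs were summed over the cells of each population in each library and compared within libraries by edgeR's quasi-likelihood test, with Benjamini-Hochberg adjustment over all genes tested. Levels below are in CPM (UMIs of a gene per 1000000 UMIs of the sum), scaled within a comparison, and are listed for replicates 1 to 4.

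Most listed genes of the follicular helper programme were higher in helper cells. The list leaves out Il21, Cxcr5 and Pdcd1, which chose the cells. Across the transcriptome 2231 of 10754 tested genes were higher (20.7%) and 2087 lower (19.4%) in helper cells at an adjusted p under 0.05, so a call by itself was common. The libraries of both populations did not overlap for 3530 of the 10754 genes, in either direction, so a lack of overlap was common too. Of the 27 genes of the helper programme list 18 were higher and 4 lower, and their median log2 fold change was 0.76, against −0.01 over all genes tested. Bcl6, the repressor on which follicular helper cells depend (chromosome 16, 23965050 to 23988866), stood at 79.4, 104, 97.02 and 83.3 in helper cells and at 40.9, 32.2, 39.7 and 27.3 in the comparison cells. All 4 helper values lay above all comparison values, at a log2 fold change of 1.39 ± 0.11 SE, adjusted p = 2.9e-06. Sostdc1, a secreted Wnt and BMP antagonist made by follicular helper cells (chromosome 12, 36314169 to 36318452), stood at 32.6, 62.4, 59.3 and 72.7 against 1.81, 9.06, 17.7 and 11.7. It had the largest increase among the genes that met the naming rule, 2.53 ± 0.31 SE, adjusted p = 0.0041, and replicate 1 was the lowest on both sides. Tnfsf8, the CD30 ligand (chromosome 4, 63831202 to 63861508), stood at 316, 380.1, 363 and 224 against 166, 152, 159 and 133, a log2 fold change of 1.05 ± 0.09 SE, adjusted p = 1.8e-05, with replicate 4 lowest in both populations.

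Other regulators and surface molecules of the lineage rose with Bcl6. The transcription factor Ascl2, which can drive Cxcr5 expression, was low in both populations, at 11.5, 21.5, 13.7 and 9.53 against 2.85, 4.21, 4.26 and 3.39, yet its values did not overlap (log2 fold change 1.89 ± 0.21 SE, adjusted p = 7.1e-06). Tox2, another factor of follicular helper differentiation, stood at 171, 175, 159.9 and 146 against 58.3, 40.01, 42.3 and 42.05 (1.84 ± 0.08 SE, adjusted p = 6.4e-09). These genes are shown in every library and population in the plot of levels by population. Cebpa (1.54 ± 0.15), Pou2af1 (1.34 ± 0.12), the factor Maf, which binds the Il21 promoter (0.89 ± 0.05), Irf4 (1.03 ± 0.07) and Batf (0.46 ± 0.06) were also higher. The secreted factor Angptl2 (1.87 ± 0.13), the adaptor Sh2d1a, which T cells need for stable contact with B cells (0.76 ± 0.06), and the receptors Cd200 (1.34 ± 0.07), Btla (0.94 ± 0.08) and S1pr2 (0.76 ± 0.22) were higher as well. Icos (0.35 ± 0.06), Izumo1r (0.24 ± 0.07) and Slamf6 (0.20 ± 0.06) were higher by small amounts. Lef1 (−1.84 ± 0.20), Il6ra (−0.36 ± 0.09), Cd84 (−0.33 ± 0.06) and Cd40lg (−0.24 ± 0.06) were lower. Tcf7 (0.15 ± 0.07), Id3 (0.13 ± 0.09), Il6st (0.13 ± 0.07) and Stat3 (0.14 ± 0.05) did not pass the test. The B cell chemoattractant Cxcl13 varied from 5.35 to 146 between helper libraries and from 13.7 to 143 between comparison libraries (−0.01 ± 1.24, not called).

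**Figure D1:**
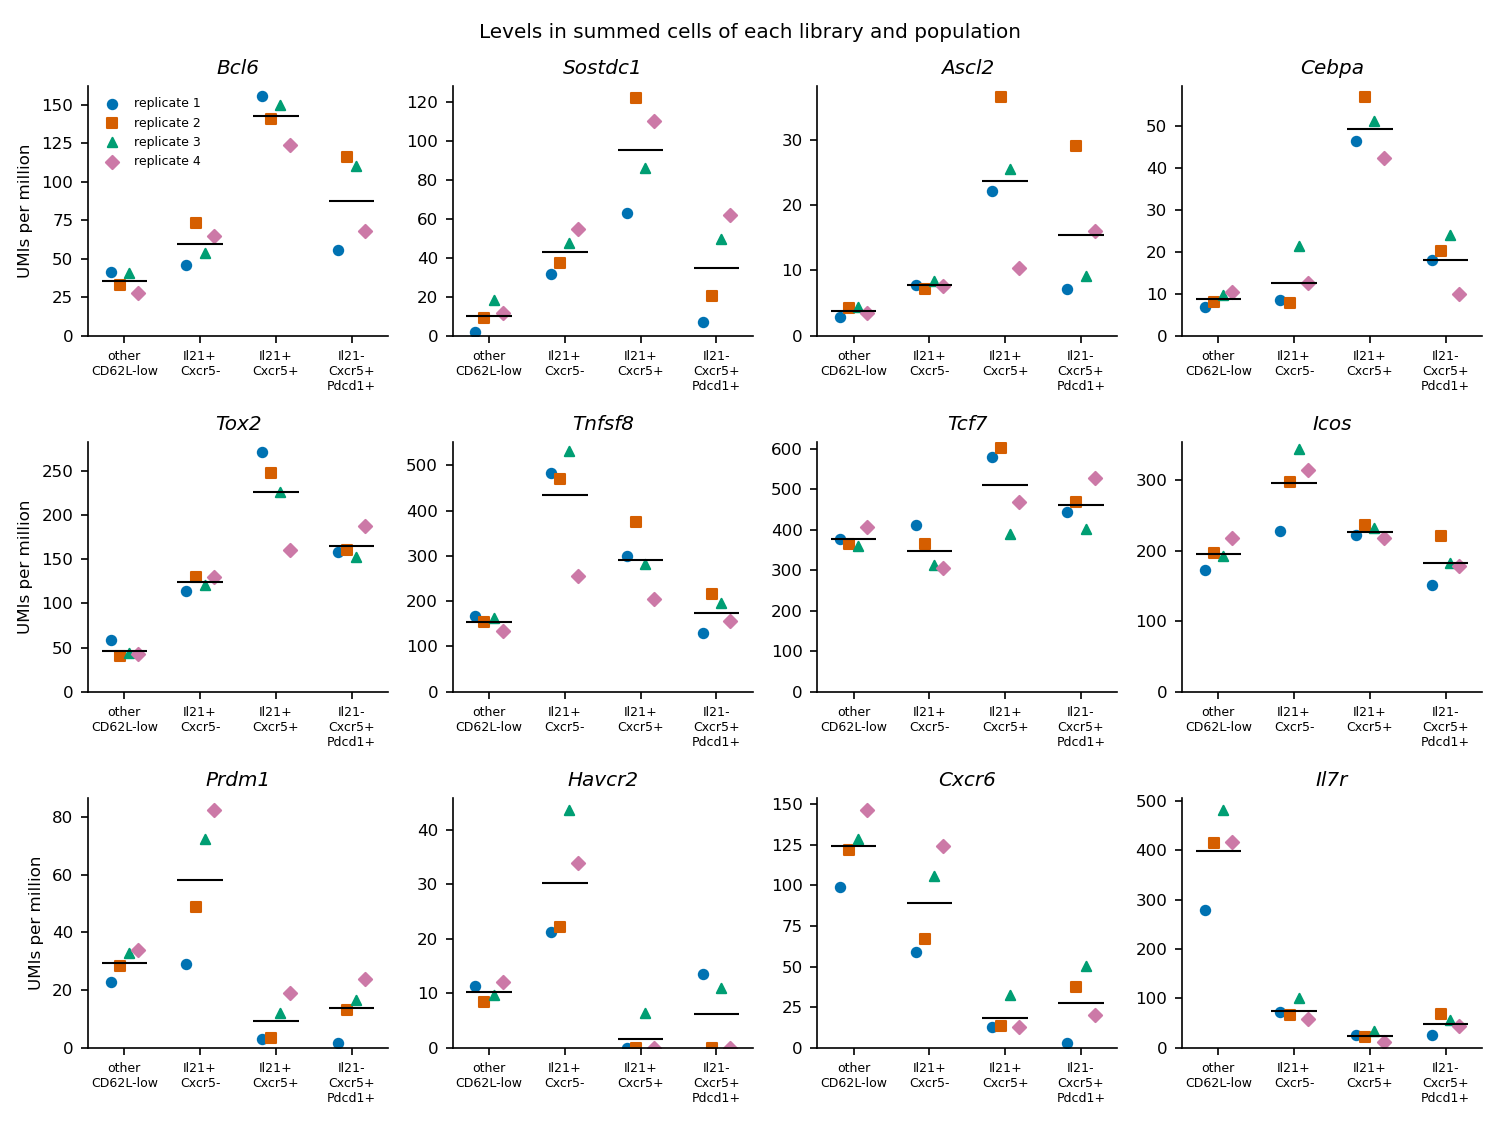
CPM (vertical axes, linear from 0) of 12 genes in the summed cells of 4 populations (horizontal axes), scaled over all 16 sums, with 1 point for each library and a line at the mean of 4 libraries. Bcl6, Sostdc1, Ascl2, Cebpa and Tox2 are highest on average in Il21 cells with Cxcr5, Tnfsf8, Icos, Prdm1 and Havcr2 in Il21 cells without it, and Il7r is highest in the other CD62L-low CD4 cells.

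Among the secreted and membrane-bound help signals, 8 of 18 tested genes of the list were higher and 3 lower. Tnfsf11, the RANK ligand, stood at 148, 170.0, 128 and 120.0 against 76.9, 63.2, 57.2 and 64.3 (1.11 ± 0.08 SE, adjusted p = 8.8e-07), and lymphotoxin α (Lta) at 55.7, 113, 79.7 and 80.03 against 39.1, 48.4, 21.5 and 35.6 (1.19 ± 0.23 SE, adjusted p = 0.017). Both were higher in all 4 helper libraries with no overlap. Lif (1.65 ± 0.24), Tnfsf4, the OX40 ligand (0.98 ± 0.30), Tnfsf9 (0.46 ± 0.15), Tnf (0.42 ± 0.11) and Ifng (0.31 ± 0.07) were higher as well, and of these only Lif had no overlap between the libraries of both populations. Lymphotoxin β (Ltb, −0.35 ± 0.04) and Fas ligand (Fasl, −1.35 ± 0.14) were lower. The cytokine Il10, at 14.9, 9.29, 39.1 and 31.3 against 5.70, 9.06, 5.20 and 16.8, was higher in each helper library than in its partner but did not pass the test (1.31 ± 0.52 SE, adjusted p = 0.14). Il4 (0.07 ± 0.86), Il2 (0.73 ± 0.74), Tnfsf10 (−0.22 ± 0.12), Tnfsf14 (0.11 ± 0.12), Areg (−0.30 ± 0.40) and Penk (0.22 ± 0.55) were not called.

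Inhibitory receptors and genes induced by T cell receptor signals were higher together with the helper programme. Of 14 tested genes of the inhibitory receptor list 10 were higher and 2 lower, and Lag3, Cd200, Tox and Btla had the smallest p-values. Lag3, a receptor that binds MHC class II, stood at 324, 411, 378 and 418 against 146, 164, 132 and 188 (1.28 ± 0.06 SE, adjusted p = 3.6e-09) and Tox, a nuclear factor of exhausted and follicular T cells, at 322, 343, 364 and 312 against 197, 176, 189 and 197 (0.82 ± 0.06 SE, adjusted p = 1.1e-07). Tigit (1.22 ± 0.08), Cd160 (1.36 ± 0.23) and Ctla4 (0.65 ± 0.08) moved the same way. Of 15 tested genes of the receptor signal list 10 were higher and 1 lower, among them Egr2 at 56.8, 54.3, 46.8 and 56.3 against 24.3, 17.7, 13.7 and 19.4 (1.53 ± 0.10 SE, adjusted p = 4.6e-08), Spry1 (0.98 ± 0.10) and Tnfrsf4 (0.94 ± 0.06). The anergy list, genes of T cell unresponsiveness, shared Egr2 and Lag3 with these lists and had 9 of 14 higher and 2 lower, with Nfatc1 at 0.84 ± 0.07 and Dgka at −0.76 ± 0.06.

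Genes of naive, memory and recirculating T cells were lower in helper cells. Of 16 tested genes of the stem and naive list 13 were lower and 1 higher, with a median log2 fold change of −1.25. Il7r, the receptor for the survival cytokine IL-7, stood at 43.6, 50.8, 68.2 and 40.6 in helper cells against 275, 408, 471 and 414 (−2.95 ± 0.11 SE, adjusted p = 1.8e-07), and Igfbp4 at 25.3, 23.5, 12.01 and 16.3 against 216, 196, 117 and 97.3 (−3.01 ± 0.09 SE, adjusted p = 1.2e-10). The lowest comparison library exceeded the highest helper library for both, although Igfbp4 changed sign (0.58) when only cells with at least 200 CD11a antibody counts were compared. Dapl1 (−2.74 ± 0.12), Klf2, which controls recirculation (−1.72 ± 0.07), and its relative Klf3 (−1.56 ± 0.07) followed. Of 19 tested migration genes 11 were lower and 2, S1pr2 and Ccr8, higher. S1pr1, the receptor for exit from tissue into lymph, stood at 53.2, 63.3, 97.5 and 75.1 against 206, 238, 277 and 205 (−1.69 ± 0.09 SE, adjusted p = 1.8e-07), and Ccr2, a receptor for inflammatory chemokines, at 12.9, 19.7, 14.7 and 22.05 against 41.2, 56.4, 57.2 and 65.2 (−1.67 ± 0.10 SE, adjusted p = 1.7e-08). The integrin chains Itgb7 (−1.22 ± 0.06) and Itga4 (−0.63 ± 0.05), the selectin ligand Selplg (−1.13 ± 0.06), Ccr7 (−0.80 ± 0.06) and Cxcr6 (−1.24 ± 0.18) were lower too. Itga1, a collagen-binding integrin chain, had 1, 6, 1 and 1 UMIs in helper cells of replicates 1 to 4 against 17, 48, 40 and 45 in the comparison cells.

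Th1, cytotoxic and interferon-response genes were also lower. Of 17 tested Th1 genes 11 were lower and 3, Ifng, Tnf and Stat4, higher. The chemokine Ccl5 stood at 124, 165, 243 and 232 against 609, 606, 1354 and 1196 (−2.26 ± 0.10 SE, adjusted p = 2.2e-05), and the factors Id2 (−1.01 ± 0.06), Runx3 (−0.74 ± 0.07) and Hopx (−2.23 ± 0.15) were lower in all 4 libraries. In the cytotoxic list 6 of 11 genes were lower, including perforin (Prf1, −2.45 ± 0.28), granzyme B (Gzmb, −2.73 ± 0.39) and Nkg7 (−0.76 ± 0.08), and Cst7 was higher (0.25 ± 0.07). None of the 18 interferon-response genes was higher and 16 were lower, with a median of −0.89, among them Ifi203 (−1.09 ± 0.07), Gbp4 (−0.89 ± 0.06), Ifi47 (−0.84 ± 0.07) and Slfn1 (−0.89 ± 0.07). Their summed level was 1753 to 1963 CPM in helper libraries against 2380 to 2791 in comparison libraries. Heat shock and early response genes, which also rise during tissue dissociation, moved in the same direction (7 of 14 lower, none higher, summed level 7722 to 9406 against 8858 to 12354), and their part in these differences was not tested.

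The remaining genes named by size of change came from outside these lists or from cell division. Ccl3, a chemokine that attracts T cells and macrophages, stood at 33.2, 40.9, 49.5 and 79.8 against 6.47, 9.48, 10.2 and 19.04 (2.17 ± 0.11 SE, adjusted p = 2.0e-09). Plagl1 (2.05 ± 0.14) and Sccpdh (1.90 ± 0.12) were higher in all 4 libraries. Ube2c (1.95 ± 0.17), Plk1 (1.89 ± 0.11), Cenpf (1.86 ± 0.12) and the histone gene Hist1h3b (2.05 ± 0.15) belong to cell division. Slpi (−2.71 ± 0.20), St3gal6 (−2.62 ± 0.15), Gm45552 (−2.62 ± 0.13), Ifi208 (−2.47 ± 0.11), Irgc1 (−2.47 ± 0.20), Trat1 (−2.34 ± 0.12) and Ctla2a (−2.32 ± 0.12) completed the 10 lowest.

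**Figure D2:**
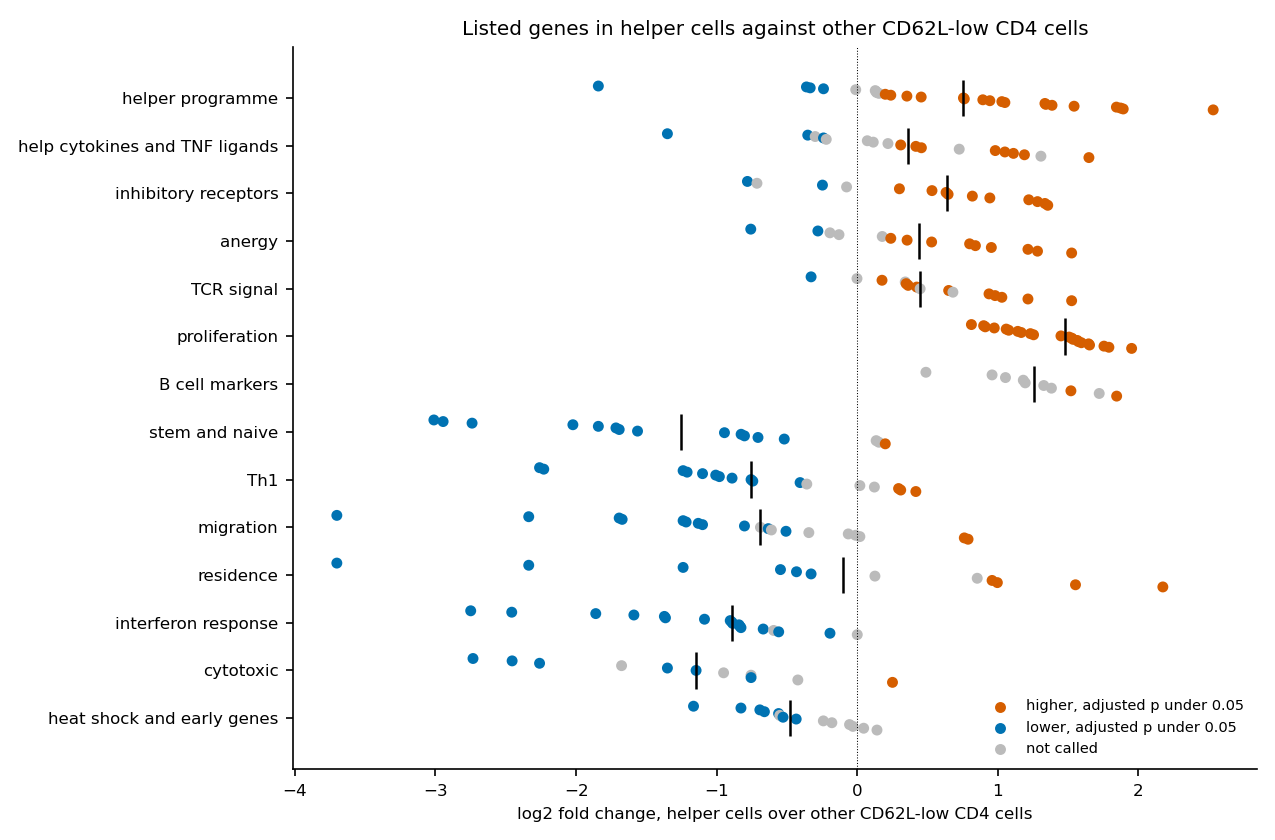
Log2 fold change (horizontal axis) of each tested gene of 14 lists (rows) in helper cells over the other CD62L-low CD4 cells, coloured by the edgeR call, with a black line at each list's median. All 22 proliferation genes lie to the right of 0 and 16 of 18 interferon-response genes are called lower.

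All 22 proliferation genes were higher in helper cells, with a median log2 fold change of 1.48, and Rrm2 (1.45 ± 0.06), Cdca8 (1.57 ± 0.07), Birc5 (1.57 ± 0.08) and Hmgb2 (0.91 ± 0.04) had the smallest p-values. The share of cells with at least 2 proliferation UMIs, thinned to 2000 UMIs a cell, was 47.5%, 41.9%, 44.2% and 47.2% in helper cells and 35.0%, 30.9%, 32.4% and 32.5% in the comparison cells. Cells with fewer UMIs were left out, 16, 7, 19 and 32 helper cells and 156, 106, 159 and 377 comparison cells. The difference was 12.5 ± 1.56 percentage points (SD, n = 4), positive in 4 of 4 libraries (exact two-sided sign-flip test p = 0.125, the smallest that 4 libraries allow), and it was 26.9 without thinning. Over 10 genes of mitosis alone, a list chosen after the data were seen, the thinned shares were 13.5% ± 2.59 and 3.61% ± 1.34 (SD, n = 4). Without the cells with 2 or more mitotic UMIs 1371 genes were higher and 1315 lower of 10055 (13.6% and 13.1%), and the helper programme list stood at 21 higher and 1 lower of 27, while 2 of 14 proliferation genes that could be tested were higher, 1 was lower, and Rrm2 (−0.11) and Hmgb2 (−0.18) changed sign.

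Fewer genes were called between cells alike in Pdcd1, which the rule used. When both sides were limited to cells with a Pdcd1 UMI, 185 genes were higher and 236 lower of 9677 (1.91% and 2.44%). The helper programme then had 11 genes higher and 1 lower of 27, with Bcl6 at 0.88, Ascl2 at 1.73, Tox2 at 0.87 and Cebpa at 1.11, all called. The markers Sostdc1 (1.31 ± 0.62 SE) and Tnfsf8 (0.27 ± 0.10 SE) kept their direction but were no longer called. Of 13 inhibitory receptor genes only Btla remained called. Icos (−0.09), Izumo1r (−0.23), Il6ra (0.31), Tnfsf4 (−0.02) and Dapl1 (0.09) changed sign without a call. Of 16 Th1 genes 9 were lower and none higher, and of 18 migration genes 9 were lower and none higher.

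Few genes were called between the summed helper and comparison cells of shared clonotypes, which were not compared clone by clone. With both sides limited to clonotypes that had cells in both populations, 29 genes were higher and 30 lower of 8785 (0.33% and 0.341%). Bcl6 (0.75), Angptl2 (0.66), Tox2 (0.45) and Ccl3 (2.54) were still called higher, while Icos (−0.17), Batf (−0.13), Irf4 (−0.09) and Lag3 (−0.12) changed sign without a call. Sostdc1 (1.19) and Tnfsf8 (0.31) kept their direction but were not called. Lef1 (−0.80), Nkg7 (−1.09) and Itga4 (−0.45) were called lower. Both limits also left fewer cells in the sums, so a lost call does not show an equal level. Over all helper and comparison cells, 2 of 10 B cell markers (Pax5 and Ebf1) were called higher and none lower. That share is close to the 20.7% of all tested genes called higher. The 10 markers had a summed level of 141 to 390 CPM against 86.0 to 143, and each had at least 1 UMI in both populations. In replicate 1 that level was no higher in helper cells (141 against 143 CPM). Among barcodes with a β chain, 4.38% to 11.6% of helper cells and 3.05% to 4.71% of comparison cells by library had 2 β chains. Without barcodes with a B cell marker UMI or 2 β chains, 21.7% of 10416 genes were higher and 20.4% lower, and of the helper programme 18 genes were higher and 4 lower, as with them.

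Within the Il21 cells, those with and without a Cxcr5 UMI differed in 339 of 9016 genes, 116 higher (1.29%) and 223 lower (2.47%) in the Cxcr5-positive cells. For 606 of the 9016 genes the libraries of both classes did not overlap, in either direction. Bcl6, Cebpa, Ascl2, Sostdc1 and Tox2 were among the 8 of 27 helper programme genes that were higher in the Cxcr5-positive cells. Bcl6 stood at 158, 143, 153 and 127 in Cxcr5-positive and at 47.00, 74.1, 54.3 and 65.4 in Cxcr5-zero cells, a log2 fold change of 1.27 ± 0.13 SE, adjusted p = 6.8e-07. Cebpa stood at 46.9, 57.8, 52.1 and 43.3 against 8.68, 7.94, 21.5 and 12.8 (1.96 ± 0.22 SE, adjusted p = 4.6e-06), and Ascl2 at 22.4, 37.1, 26.1 and 10.6 against 7.95, 7.28, 8.48 and 7.67 (1.54 ± 0.28 SE, adjusted p = 9.0e-04). The libraries of both classes did not overlap for these genes, and replicate 4 was the lowest Cxcr5-positive library for each. Sostdc1, at 64.2, 124, 87.9 and 113 against 32.5, 37.7, 48.1 and 55.2 (1.15 ± 0.14 SE, adjusted p = 3.1e-06), and Tox2 (0.85 ± 0.12 SE, adjusted p = 1.4e-04) went the same way. Tcf7, a factor of stem-like and follicular T cells, stood at 587, 612, 397 and 479.7 against 420.1, 370.0, 316 and 308 (0.55 ± 0.08), Sh2d1a at 0.46 ± 0.09, S1pr2, which holds cells in germinal centres, at 0.94 ± 0.26 and Tnfsf11 at 0.38 ± 0.10.

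Among the genes higher in Cxcr5-zero Il21 cells were 4 of 10 tissue residence genes (Prdm1, Cxcr6, Ahr and Rgs1) and 4 of 13 inhibitory receptor genes, while no tested gene of either list was higher in the Cxcr5-positive cells. Prdm1, which encodes Blimp-1, the antagonist of Bcl6, stood at 29.6, 49.6, 72.96 and 83.3 in Cxcr5-zero and at 3.06, 3.45, 12.2 and 19.4 in Cxcr5-positive cells (−2.64 ± 0.22 SE, adjusted p = 7.8e-09, with negative values higher in Cxcr5-zero cells). Havcr2, the gene of TIM-3, had 30, 34, 78 and 67 UMIs in the Cxcr5-zero cells of replicates 1 to 4 and 0, 0, 8 and 0 in the Cxcr5-positive cells, whose level thus rests on replicate 3. The fitted log2 fold change was −4.12 ± 0.52, which depends on how zero counts are treated. The chemokine receptors Cxcr6, at 60.01, 68.2, 107 and 125 against 13.3, 13.8, 33.4 and 13.3 (−2.28 ± 0.19 SE, adjusted p = 6.2e-07), and Ccr2, at 20.2, 40.4, 24.3 and 36.8 against 2.04, 6.04, 8.14 and 3.53 (−2.57 ± 0.29 SE, adjusted p = 1.2e-06), are known for recruitment to inflamed tissue. Their lowest Cxcr5-zero library lay above the highest Cxcr5-positive one. Lag3 (−0.89 ± 0.09), Entpd1, the ectonucleotidase CD39 (−1.71 ± 0.24), Id2 (−1.36 ± 0.13), Il7r (−1.71 ± 0.16), Il18r1 (−0.89 ± 0.19), Ccr8 (−0.72 ± 0.14), Selplg (−0.67 ± 0.10), Itga4 (−0.69 ± 0.10), Cst7 (−0.69 ± 0.12) and Neb (−2.91 ± 0.30) were higher in Cxcr5-zero cells too.

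Some genes of the helper lineage were higher in Cxcr5-zero cells, so the list split: 8 of its 27 genes were higher and 5 lower in Cxcr5-positive cells, with a median of 0.05. The 5 were Tnfsf8, at 492, 477, 536 and 259 in Cxcr5-zero and 304, 380.4, 287 and 210.3 in Cxcr5-positive cells (−0.56 ± 0.10 SE, adjusted p = 9.1e-04), Cd200 (−0.56 ± 0.08), Icos (−0.37 ± 0.09), Izumo1r (−0.68 ± 0.09) and Irf4 (−0.83 ± 0.12). Tnfsf8 and Icos overlapped between the classes, and their replicate 4 and replicate 1, respectively, were the lowest Cxcr5-zero libraries. Of 13 inhibitory receptor genes 4 were lower and none higher in Cxcr5-positive cells, of 15 migration genes 6 lower and 1 (S1pr2) higher, of 14 Th1 genes 3 lower and none higher, and of 14 interferon-response genes 6 lower and none higher. Proliferation genes had 7 of 22 higher and none lower. That count was 0 of 22 in either direction when the classes were matched for UMIs per cell, and 1 without the replicate as a block. Among the help cytokines Fasl (−1.30 ± 0.31) and Tnfsf10 (−0.91 ± 0.21) were lower in Cxcr5-positive cells and Il10 was not called (−3.13 ± 0.61 SE, adjusted p = 0.063), at 1.45, 18.5, 89.9 and 49.6 in Cxcr5-zero and 0, 0, 3.26 and 15.02 in Cxcr5-positive cells. Of 16 tested genes of that list 1, Tnfsf11, was higher and 3, with Tnfsf8 the third, were lower in Cxcr5-positive cells. The remaining 12 did not pass the test, among them Ifng (−0.73 ± 0.22), Lif (0.97 ± 0.29), Ltb (−0.25 ± 0.08), Lta (−0.05 ± 0.48) and Tnf (0.10 ± 0.20).

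**Figure D3:**
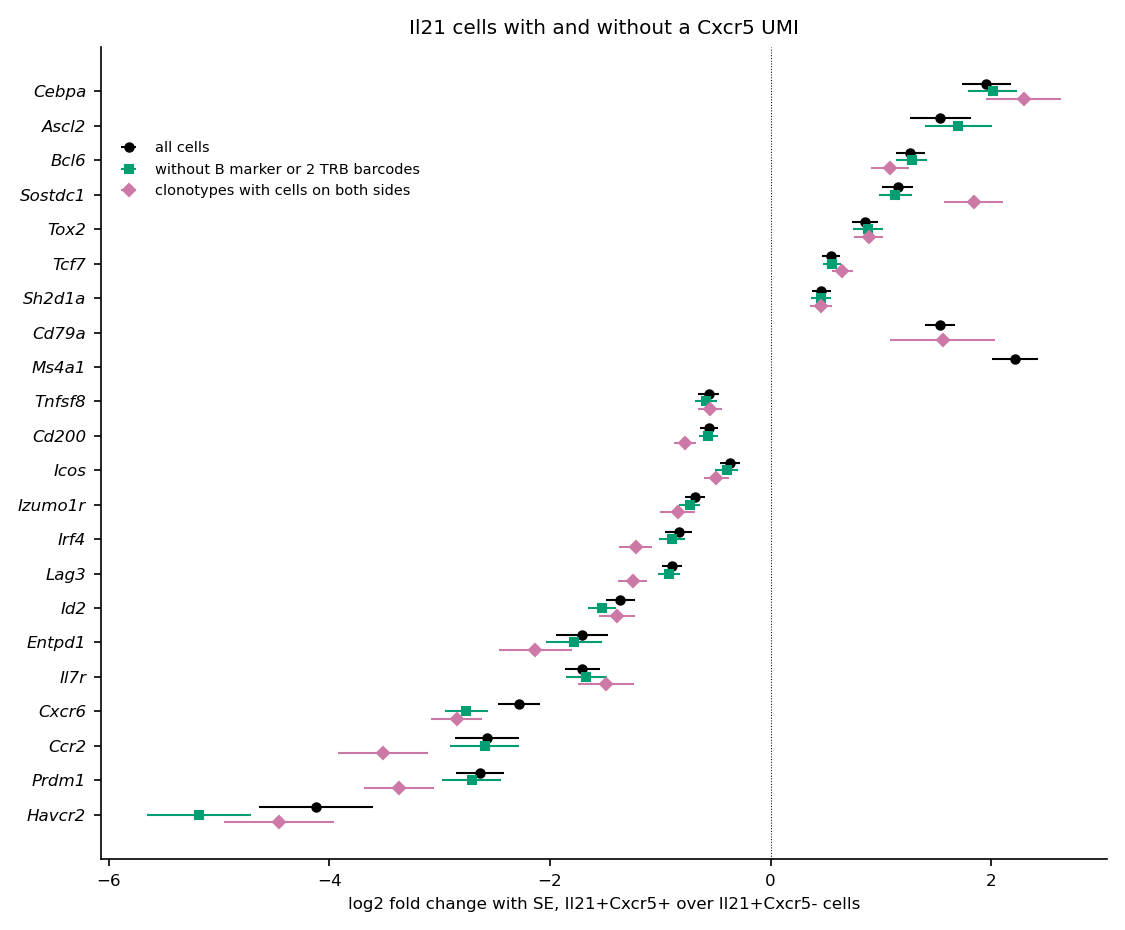
Log2 fold change with its standard error (horizontal axis) of 22 named genes (rows) in Il21 cells with Cxcr5 over Il21 cells without it, for all cells, without barcodes that held a B cell marker UMI or 2 β chains, and for clonotypes with cells in both classes. A missing point is a gene not tested there. Bcl6, Cebpa and Tox2 lie right of 0 and Prdm1, Ccr2 and Havcr2 left of 0 in all 3 settings.

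Of 8 tested B cell markers 3 were higher in the Cxcr5-positive cells and 5 were not called, while 1.29% of all tested genes were higher. Ms4a1 stood at 22.4, 59.5, 56.99 and 39.8 against 5.06, 11.3, 10.2 and 11.2 (2.22 ± 0.21), Cd79a at 1.54 ± 0.13 and Cd79b at 1.49 ± 0.21. Whether these UMIs came from the T cells themselves or from B cell RNA in the same droplets was not tested. The 10 markers summed to 201 to 419 CPM in Cxcr5-positive and 111 to 164 in Cxcr5-zero libraries, with none of them at 0. Without barcodes with a B cell marker UMI or 2 β chains, 160 genes were higher and 236 lower of 8599 (1.86% and 2.74%), and 298 of the 326 earlier calls that could be tested again kept their call and direction. Bcl6 (1.28), Cebpa (2.02), Prdm1 (−2.71) and Cxcr6 (−2.76) were as large as with them.

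The Cxcr5-positive cells were also deeper (medians 6716 to 8599 against 4104 to 6146 UMIs). With the classes matched for UMIs per cell, 67 genes were higher and 173 lower of 8641 (0.775% and 2.0%), with Bcl6 at 1.31 and Prdm1 at −2.65. The count of calls was 105 without the replicate as a block, 107 by DESeq2, 128 with 1 cell per clonotype, 211 without replicate 3 and 189 without replicate 4. Among the genes that lost their call without the block were Prdm1 (−2.61 ± 0.55 SE, edgeR adjusted p = 0.10), Tnfsf8, Tcf7, Icos and Neb, all with their direction kept. Bcl6, Cebpa, Cxcr6, Ccr2 and Havcr2 were still called. With 1 cell per clonotype Cxcr6 (−2.09 ± 0.47 SE), Tox2 (0.89 ± 0.21 SE) and Sostdc1 (0.81 ± 0.83 SE) kept their direction but were not called. Bcl6 (1.37), Cebpa (1.44) and Prdm1 (−2.30) were called in that setting. Sostdc1 was not called without the cells with 2 or more mitotic UMIs either (1.305 ± 0.49 SE).

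Genes were also called between the classes within their shared clonotypes. Cells were summed over these clonotypes in each library, and clones gave unequal numbers of cells to the classes. Differences within single clones were therefore not tested. Limited to clonotypes with cells in both classes, 60 genes were higher and 146 lower of 7670 (0.782% and 1.9%). Bcl6 (1.09), Sostdc1 (1.84), Cebpa (2.29), Tox2 (0.89) and Tcf7 (0.65) were called higher in the Cxcr5-positive cells, and Prdm1 (−3.37), Ccr2 (−3.51), Cxcr6 (−2.85), Lag3 (−1.25) and Ifng (−1.32) in the Cxcr5-zero cells.

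The cells that entered by Cxcr5 and Pdcd1 alone were compared with the Il21 cells that carried both receptors, and few genes were called at this depth. Of 8381 genes 3 were higher (0.0358%) and 5 lower (0.0597%), and 493 had an unadjusted p under 0.05. Il21, which chose the cells, is among the 3, and another of the genes that chose cells is among the 5. Neither is counted as a result, which leaves 6 calls. Cebpa, at 53.5, 62.4, 59.1 and 49.2 in Il21-positive and 18.2, 20.6, 24.3 and 10.1 in Il21-zero cells (1.58 ± 0.22 SE, adjusted p = 0.015), and Tbc1d4, a regulator of glucose transport (0.72 ± 0.10 SE, adjusted p = 0.015), were higher. Ccr7, at 71.3, 59.3, 59.1 and 71.8 against 156, 165, 129.8 and 123 (−1.13 ± 0.15 SE, adjusted p = 0.015), and Lef1 (−0.98 ± 0.16 SE, adjusted p = 0.036), both genes of naive and central memory cells, were lower, as were the B cell genes H2-DMb2 (−1.07 ± 0.16) and Igkc. Bcl6 (0.82 ± 0.19 SE, adjusted p = 0.2), Sostdc1 (1.83 ± 0.37 SE, adjusted p = 0.26) and Maf (0.73 ± 0.13 SE, adjusted p = 0.076) were higher in each library without passing the test. With cells matched for total UMIs Bcl6 (0.88), Sostdc1 (1.695) and Maf (0.77) were called higher, among 21 higher and 21 lower genes of 7772. Without barcodes with a B cell marker UMI or 2 β chains Bcl6 (0.75), Sostdc1 (1.60) and Maf (0.73) were not called. The sums held 75, 84, 86 and 77 Il21-positive and 89, 62, 110 and 65 Il21-zero cells, and the count of calls ran from 3 to 50 when 1 replicate was left out and was 1 without barcodes with a B cell marker UMI or 2 β chains. Cebpa (1.48), Tbc1d4 (0.67), Ccr7 (−0.90) and Lef1 (−0.86) then kept their direction without passing the test. The B cell markers summed to 94.6, 315, 338 and 245 CPM in the Il21-positive cells and to 125, 481, 805 and 464 in the Il21-zero cells, higher in the Il21-zero cells of each library.

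The helper cells had more antibody counts of CD11a and CD4 than the comparison cells, along with their greater RNA depth, whose part was not tested. CD4 antibody medians were 555, 362.5, 439.5 and 470.5 counts in helper cells and 254.5, 158, 246 and 270 in the comparison cells, and a CD4 minimum chose both. CD11a, an integrin chain that rises on T cells after they meet antigen, had medians of 432, 367, 405 and 394.5 counts in helper cells and 158.5, 125, 170 and 171 in the comparison cells. The log2 ratio of medians was 1.36 ± 0.16 (SD, n = 4), positive in 4 of 4 libraries (exact two-sided sign-flip test p = 0.125, the smallest possible). Between 90.7% and 93.6% of helper cells by library had at least 150 CD11a counts. CD62L, which guides naive T cells into lymph nodes, was above 3 counts in 21.2% ± 7.30 (SD, n = 4) of helper cells, whereas the comparison cells were chosen to be at or below 3. Within the Il21 cells that share was 23.8%, 4.85%, 24.4% and 15.5% with Cxcr5 and 19.9%, 16.9%, 31.4% and 16.1% without it. The difference of −3.98 ± 7.02 percentage points (SD, n = 4) was within the spread between libraries (exact sign-flip test p = 0.375), and replicate 1 went against the others.

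**Figure D4:**
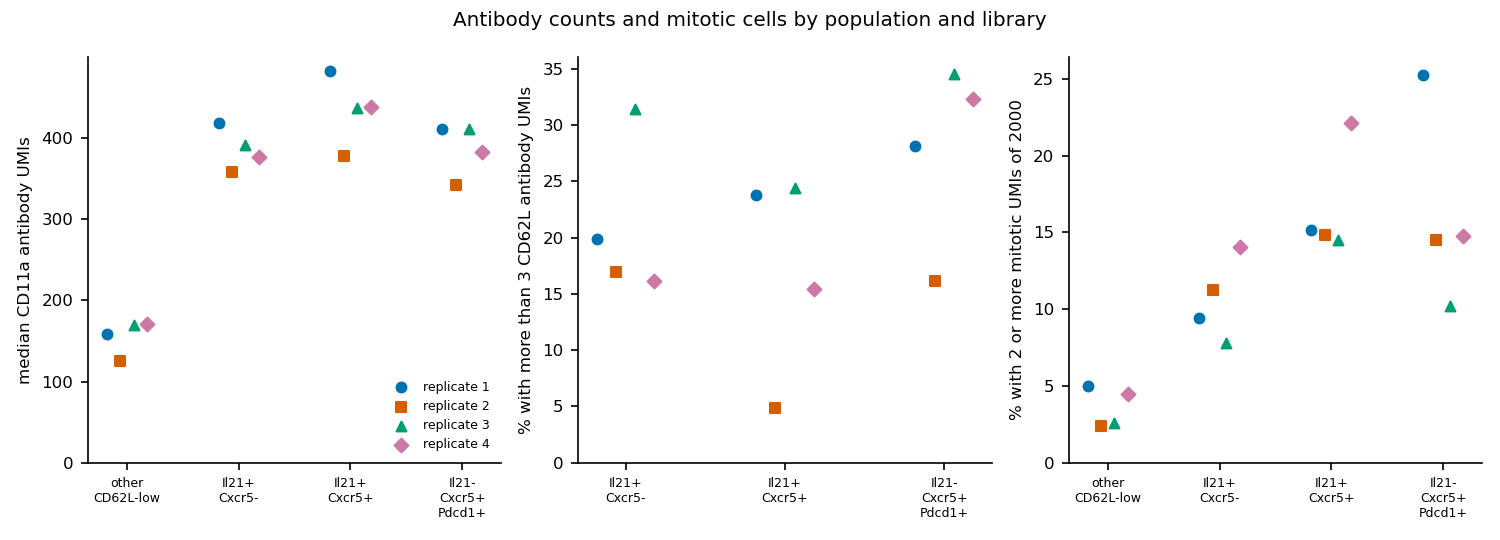
Median CD11a antibody counts, the share of cells with more than 3 CD62L antibody counts and the share with at least 2 mitotic UMIs after thinning to 2000 UMIs (vertical axes, from 0) in each population (horizontal axes), 1 point per library. All CD11a medians of helper populations lie above 340 and those of the comparison cells, 125 to 171, far below. The comparison cells are left out of the CD62L panel because CD62L chose them.

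The receptor libraries showed helper cells to be strongly clonal. A clonotype was the set of α and β chain CDR3 sequences, the stretch of the receptor that touches the antigen peptide, in cells with exactly 1 β chain and 1 or 2 α chains. Such a receptor was read in 1285 helper cells (76.8% to 79.9% by library), which fell into 537 clonotypes counted within libraries. The 5 clones with most helper cells held 38, 33, 32, 29 and 24 of them. Their CDR3 nucleotide sequences, 5′ to 3′ from the deposited contigs, are shown because these clones carry the largest groups of helper cells, and they run from the conserved cysteine codon, with no letter singled out.

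Clone 1, replicate 4, TRAV10D and TRAJ44: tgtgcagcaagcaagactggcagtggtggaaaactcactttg
Clone 1, replicate 4, TRBV14 and TRBJ1-6: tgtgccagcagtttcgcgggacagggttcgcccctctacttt
Clone 2, replicate 4, TRAV9D-3 and TRAJ32: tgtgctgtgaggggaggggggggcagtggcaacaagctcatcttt
Clone 2, replicate 4, TRBV15 and TRBJ2-7: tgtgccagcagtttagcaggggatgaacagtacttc
Clone 3, replicate 1, TRAV13-4-DV7 and TRAJ39: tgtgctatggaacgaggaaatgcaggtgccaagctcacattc
Clone 3, replicate 1, TRBV15 and TRBJ2-7: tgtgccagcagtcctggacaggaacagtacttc
Clone 4, replicate 3, TRAV5D-4 and TRAJ37: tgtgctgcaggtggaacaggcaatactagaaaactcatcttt
Clone 4, replicate 3, TRBV20 and TRBJ1-2: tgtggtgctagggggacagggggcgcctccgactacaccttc
Clone 5, replicate 1, TRAV16N and TRAJ15: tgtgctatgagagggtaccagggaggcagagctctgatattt
Clone 5, replicate 1, TRBV13-1 and TRBJ2-5: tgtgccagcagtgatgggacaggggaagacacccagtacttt

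Each of these clones was seen in 1 library only, and none of their β chain sequences occurred in another library. Clones 2 and 3, from different replicates, share TRBV15 and TRBJ2-7 but not the CDR3 sequence, which has 36 and 33 bases. None of the 5 was made only of cells that met the helper rule. Clone 1 had 69 cells, of which 9 were Il21 cells with Cxcr5, 28 Il21 cells without it, 1 had Cxcr5 and Pdcd1 only, 20 were comparison cells, 1 was CD62L-high and 10 fell outside the CD4 gate. Helper cells made up 55.1% of it, and 56.9%, 47.8%, 58.0% and 46.2% of clones 2 to 5. No cell of the 5 clones had a Foxp3 UMI. A Pdcd1 UMI was read in 5 of 20 comparison cells of clone 1 and 12 of 19 of clone 2. In clones 3 to 5 it was read in 11 of 29, 4 of 10 and 20 of 24. Among all comparison cells 760 of 4581 had one. An Il21 or Cxcr5 molecule that was not read can leave such a sister outside the rule. The part of unread molecules in these counts was not tested.

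**Figure D5:**
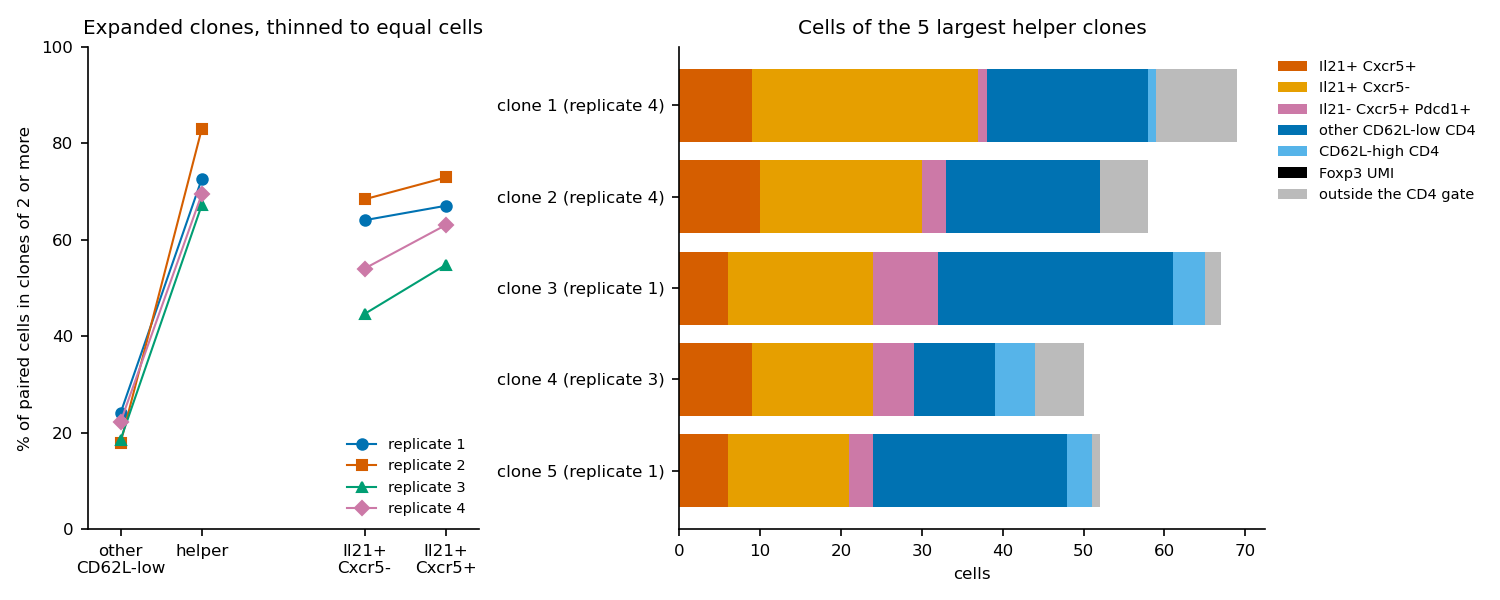
Left, percent of cells with a paired receptor that belonged to clones of at least 2 cells within their own population (vertical axis), thinned to equal cell numbers within each library, with a line joining the populations of a library. Right, numbers of cells (horizontal axis) of the 5 largest helper clones by population. Helper cells lie at 67.3% to 83.1% against 17.8% to 24.0% in the comparison cells, and each clone holds helper and comparison cells.

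Counted in equal numbers of cells within each library, 72.7%, 83.1%, 67.3% and 69.6% of helper cells belonged to clones of at least 2 helper cells, against 24.0%, 17.8%, 18.5% and 22.2% for the comparison cells. The difference was 52.5 ± 8.52 percentage points (SD, n = 4), positive in 4 of 4 libraries (exact two-sided sign-flip test p = 0.125, the smallest possible). The 5 largest clones of a library held 23.4% to 38.3% of its paired helper cells. Clones crossed the populations as the rule drew them. A sister among the comparison cells was found for 59.7% ± 7.08 (SD, n = 4) of helper cells. Of comparison cells 16.7% ± 3.51 had a sister among the helper cells. A molecule that was not read can place sisters of the same state in different populations, and its part in these shares was not tested. A CD62L-high CD4 sister was found for 47.5%, 10.1%, 42.5% and 38.5% of helper cells, lowest in replicate 2. A sister with a Foxp3 UMI was found for 3.55%, 21.2%, 11.7% and 6.98% of helper cells and for 3.78%, 7.64%, 3.50% and 4.43% of comparison cells.

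Clones also crossed the Cxcr5 split. Of 156 clones with at least 2 Il21 cells, 101 held Cxcr5-positive and Cxcr5-zero cells, 8 held Cxcr5-positive cells only and 47 held none, and the mixed clones contained 636 of their 781 cells. Since 244 of 420 Cxcr5-positive Il21 cells had exactly 1 Cxcr5 UMI, a molecule that was not read can make a clone appear mixed. Its part in these counts was not tested. In the 19 clones with at least 10 Il21 cells the Cxcr5-positive share ran from 0% to 53.3%, with 111 of 328 cells in all. The clone at 0%, from replicate 4, had 10 Il21 cells (95% exact interval up to 30.9%) and the lowest median depth of the 19, 2788 UMIs. In equal cell numbers the share of cells in expanded clones was 64.5% ± 7.60 in Cxcr5-positive and 57.8% ± 10.6 in Cxcr5-zero Il21 cells (SD, n = 4). The difference of 6.70 ± 3.47 percentage points was positive in 4 of 4 libraries (exact sign-flip test p = 0.125). Without equal numbers it was −3.81 and positive in 0 of 4 libraries, with 82 to 93 paired Cxcr5-positive and 132 to 230 paired Cxcr5-zero cells in a library.

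The receptor V genes of helper clonotypes differed from those of the comparison cells when each clonotype was counted once per population. Of 26 tested α chain V genes 2 were called (7.69%), both more frequent among helper clonotypes, and of 16 β chain V genes 5 (31.2%), 2 more and 3 less frequent. β chain shares are of clonotypes, 112, 94, 177 and 154 in the helper cells and 432, 632, 551 and 747 in the comparison cells, and α chain shares are of the α chains of those clonotypes. TRBV15 was used by 11.6%, 17.02%, 12.4% and 15.6% of helper clonotypes and by 6.71%, 6.65%, 6.72% and 6.83% of comparison clonotypes, with no overlap (log2 fold change 1.06 ± 0.22 SE, edgeR adjusted p = 2.6e-04). TRBV20 stood at 7.14%, 9.57%, 6.21% and 8.44% against 3.01%, 3.64%, 3.09% and 5.49% (0.99 ± 0.30, adjusted p = 0.0086). TRAV5-4 stood at 16.4%, 15.5%, 10.3% and 14.4% of α chains against 9.49%, 8.75%, 5.82% and 5.44% (0.97 ± 0.21, adjusted p = 4.0e-04). TRAV5D-4 stood at 4.48%, 9.09%, 5.88% and 8.84% against 2.89%, 2.67%, 2.83% and 2.72% (1.35 ± 0.32, adjusted p = 9.3e-04). TRAV5-4 and TRAV5D-4 are near-identical copies, so their reads could be split between them. TRAV5D-4 is known from NOD T cells that recognise a peptide of insulin, but no antigen was measured here. Clones 2 and 3 used TRBV15, and clone 4 used TRBV20 and TRAV5D-4. The 3 less frequent β chain genes were TRBV13-3 (−1.04 ± 0.40, adjusted p = 0.036), TRBV31 (−0.94 ± 0.34, adjusted p = 0.036) and TRBV13-2. TRBV13-2 by itself was the name given to 0, 0, 1 and 1 helper clonotypes and to 12, 20, 17 and 16 comparison clonotypes. Most clonotypes with that gene carried TRBV12-2 and TRBV13-2 as 1 joint name, at 15, 9, 19 and 16 against 61, 93, 64 and 95 clonotypes, which was not called (−0.25 ± 0.19, adjusted p = 0.31), so the TRBV13-2 call is uncertain. A clonotype with cells in both populations was counted in both. Without replicate 1, and likewise without replicate 2, TRBV20, TRBV13-3 and TRBV31 were not called. Without replicate 4 TRAV5D-4, TRBV13-3 and TRBV31 were not, and without the replicate as a block TRAV5-4 and TRBV13-3 were not.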

How the data were processed

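T cells from islets of 4 replicates were measured as RNA with antibody tags and as receptor contigs. The deposited RNA files hold counts of UMIs per gene and barcode and antibody counts, made by the authors with Cell Ranger 4.0.0 per the file headers, and the build mm10 and Seurat are named in the submitters' processing notes. The antibody samples were read from the RNA matrices. Cells were filtered and chosen as described in the first paragraph, counts were summed per population and library, and sums of at least 20 cells were fitted in edgeR 4.0.16 (R 4.3.3) by the quasi-likelihood test with TMM scaling, a filter on low counts and the replicate as a block. Both populations of a library come from the same animals, which is the source of the pairing. The correlation of their deviations ran from 0.072 to 0.321 for helper against comparison cells, from 0.155 to 0.305 for the Cxcr5 split and from −0.176 to 0.193 for the Il21 split. The highest correlation with another library was above it in replicate 2 of the first comparison (0.189 against 0.072). In the Il21 split this held in replicates 1, 2 and 4 (0.123, 0.187 and 0.219 against 0.046, 0.001 and −0.176). DESeq2 1.42.0 was an alternative. Shares and medians were compared by an exact two-sided sign-flip test over 4 libraries (Python 3.11.15). Expanded-clone shares in equal cell numbers are means over 100 draws, and thinning to 2000 UMIs a cell was drawn once. Intervals cover counting error only, at 95%. No doublet caller was run, and barcodes with a UMI of 4 B cell genes or 2 β chains were removed as an alternative.

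The members and the gene lists were chosen with earlier results of these data known. Named genes were the rule and marker genes, the 10 highest and 10 lowest fold changes (5 and 5 within the Il21 cells and within the Cxcr5 and Pdcd1 cells) with an adjusted p under 0.05, one direction in 4 libraries and a mean log2 CPM of at least 4, without receptor segments, the 4 members of each list with the smallest p, all tested helper programme and cytokine genes, and members of the migration and stem lists. Other list members are given as examples. The titles call the replicates biological, without saying if each is 1 mouse or a pool. With the replicate as block or pair, the p-values measure how differences within a library varied over these 4 libraries. The fits were tested on simulated data. Alternatives that limit cells by Pdcd1, CD11a, mitotic UMIs or shared clonotypes were chosen after seeing the data. Some genes are not reported here.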

Additional observations from a re-analysis of the deposited data

Results flagged for a closer look

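In 56 groups of 4 libraries looked at, 3 had 1 library whose gap to the nearest other took up more of the group's range than Dixon's critical value for 4 samples allows. Chance gives about 1 in 20 such groups.

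The difference between helper and comparison cells in the share of cells in expanded clones was 65.259 percentage points in replicate 2, against 48.7, 48.8 and 47.4 in replicates 1, 3 and 4. Without replicate 2 the mean difference was 48.3. Ube2c had a log2 ratio of 1.3931 in replicate 1, the lowest of the 4 libraries. Gm45552 had a log2 ratio of −2.97918 in replicate 2, the most negative of the 4.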

How the results depend on the processing

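Of the genes compared between helper and comparison cells 4318 were called, against 2442 by DESeq2, 2334 with cells matched for total UMIs (medians still 4672.5 to 5670 in the comparison cells), 1119 without cells with 2 proliferation UMIs, 2686 without mitotic cells, 1729 among cells with CD11a of at least 200, 421 among cells with a Pdcd1 UMI and 59 within shared clonotypes. Leaving out 1 replicate gave 3340 to 3934. In the Cxcr5 split 339 were called, against 564 without a filter on low counts, 107 by DESeq2, 193 without mitotic cells, 128 with 1 cell per clonotype and 206 within shared clonotypes, and 189 to 391 with 1 replicate left out. In the Il21 split 8 were called, against 91 without the filter, 1 without barcodes with a B cell marker UMI or 2 β chains, 42 matched for UMIs, 23 without mitotic cells, 1 with 1 cell per clonotype and 3 to 50 with 1 replicate left out. V gene calls were 7, and 4 to 8 with 1 replicate left out. The cause of these shifts was not tested. The fit without cells with 2 proliferation UMIs was not run for either split, since libraries held under 20 such cells.

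Without the replicate as a block the calls were 3587, 105 and 4 in the 3 gene comparisons and 5 for V genes. Of the 4313 and 337 calls outside the genes that chose cells, 3551 and 103 kept call and direction without the block in the first and second comparison.

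Of the 77, 45 and 5 called named genes in the 3 comparisons, 24, 1 and 0 values turned sign and 157, 133 and 29 lost the call over 1420, 653 and 64 values. Among cells with a Pdcd1 UMI Dapl1 turned to 0.092, Icos to −0.09044, Izumo1r to −0.23, Il6ra to 0.31 and Tnfsf4 to −0.0153. Among cells with CD11a of at least 200 Igfbp4 turned to 0.58, Izumo1r to −0.13 and Il6ra to 0.26. Within shared clonotypes Icos turned to −0.17, Batf to −0.13, Izumo1r to −0.33, Il6ra to 0.0655, Irf4 to −0.0892, Cd40lg to 0.00393 and Lag3 to −0.12, and Klf2 in the Cxcr5 split to 0.26. Without cells with 2 proliferation UMIs Cd84 turned to 0.13, Cd40lg to 0.26 and Hmgb2 to −0.63. Without mitotic cells Cd84 turned to 0.0274, Rrm2 to −0.11 and Hmgb2 to −0.18. With 1 cell per clonotype Izumo1r turned to −0.056 and Ifng to −0.12, and with helper cells of at most 3 CD62L counts Ebf1 to −0.49. The expanded share in the Cxcr5 split was −3.81 without thinning.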
